A study of Mus musculus with 48 samples.

Results

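The growth hormone, STAT5 and IGF1 axis was followed in mouse liver through 10 genes, Ghr, Jak2, Stat5a, Stat5b, Socs2, Cish, Igf1, Igfals, Igfbp1 and Igfbp2, which were matched by symbol among the 55414 genes of a liver RNA-seq count table. All 10 genes passed the filter on low counts that left 15414 genes for testing. The livers came from 48 FCG mice, a cross in which Sry is deleted from the Y chromosome and carried instead as an autosomal transgene, so that the gonad is inherited apart from the sex chromosomes. Mice with ovaries (Ov) had the genotypes XX or XY-, and mice with testes (Te) had the genotypes XX;SryTg or XY-;SryTg. Each of these 4 genotypes was studied intact or after gonadectomy (GDX), with 6 mice in each of the 8 groups. All mice, the intact controls included, were on a high-fat diet (HFD) with 60% of calories from fat that began at 15 to 17 weeks of age. The study's methods give a 6 h fast before sacrifice as the default. Per the labels the diet lasted 11 weeks in intact mice and 15 weeks in GDX mice, whose gonads were removed at 75 days of age; the study's methods give other durations, and the labels are followed here. In all sentences XX and XY name the sex chromosomes and Ov and Te the gonad a mouse has or had.

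Growth hormone is released by the pituitary in a pattern that differs between the sexes, in separated pulses in male mice and more continuously in female mice. It binds its receptor GHR on hepatocytes, the receptor-bound kinase JAK2 phosphorylates STAT5A and STAT5B, and these transcription factors enter the nucleus and bind motifs of the form TTCNNNGAA. Their targets include Igf1, the main source of circulating insulin-like growth factor 1, Igfals, which holds IGF1 in a long-lived complex in plasma, and the feedback inhibitors Cish and Socs2. Igfbp1 and Igfbp2 encode binding proteins that carry IGF1 outside that complex, and both are known to respond to insulin and fasting.

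The promoters of 9 of the 10 genes were available as 15 windows of 300 bases, from 250 bases before to 50 bases after an annotated start (RefSeq, GRCm38.p6, a build other than the GRCm39 build of the reads); Socs2 was the remaining gene. The motif TTCNNNGAA, which reads the same on both strands, stood in 3 of these 15 windows, and 8.3% of all 32851 promoter windows held it. The 3 windows that held the motif, from Cish and Igfals, are shown. Whether the motif relates to the effects that follow was not tested. Capitals mark the motif, and each window is on the plus strand, written 5′ to 3′.
Cish, chr9:107296409-107296708: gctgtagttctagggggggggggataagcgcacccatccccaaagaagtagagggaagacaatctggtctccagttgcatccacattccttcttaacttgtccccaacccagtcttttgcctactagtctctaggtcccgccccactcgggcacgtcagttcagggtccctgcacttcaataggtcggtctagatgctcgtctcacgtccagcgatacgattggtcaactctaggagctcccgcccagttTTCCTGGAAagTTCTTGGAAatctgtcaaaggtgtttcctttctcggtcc
Igfals, chr17:24877594-24877893: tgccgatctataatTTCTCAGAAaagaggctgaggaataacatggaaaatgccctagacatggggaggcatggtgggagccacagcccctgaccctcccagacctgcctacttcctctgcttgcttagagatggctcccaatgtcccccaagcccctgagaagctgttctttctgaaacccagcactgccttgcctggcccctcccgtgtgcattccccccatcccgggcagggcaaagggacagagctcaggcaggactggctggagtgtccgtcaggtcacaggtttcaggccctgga
Igfals, chr17:24877981-24878280: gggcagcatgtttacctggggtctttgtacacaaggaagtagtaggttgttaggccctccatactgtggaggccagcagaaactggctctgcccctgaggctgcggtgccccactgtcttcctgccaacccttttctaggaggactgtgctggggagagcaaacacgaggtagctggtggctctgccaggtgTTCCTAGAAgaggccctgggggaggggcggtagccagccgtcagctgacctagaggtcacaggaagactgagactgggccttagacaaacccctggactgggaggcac
The Cish window held 2 matches that begin 0 and 11 bases after the start site, separated by 2 bases, and 0.457% of all windows held 2 or more. The other 12 windows, from Ghr, Jak2, Stat5a, Stat5b, Igf1, Igfbp1, Igfbp2 and the remaining Igfals start, held no match, which says only that these letters are not in those windows.

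Libraries held 13071874 to 20045141 reads on genes, and levels are given as CPM, a library's reads of a gene as a share of its reads on genes, scaled by its TMM factor (TMM-scaled CPM). The labelled sex chromosomes were borne out in all 48 libraries by Xist and 4 Y-linked genes, and 8 hepatocyte markers, Alb among them, summed to between 68545 and 130369 CPM. GDX libraries differed from intact libraries in make-up: 8.52 to 11.3% of their reads fell outside genes, against 3.47 to 6.20% in intact libraries. The study's methods name an intact and a GDX cohort. With a shared age range at diet start, the longer diet also means that GDX mice were older at its end. Surgery, weeks of diet, age, cohort and library make-up therefore cannot be told apart in the castration and ovariectomy effects. In whole liver, fewer cells of a type and less RNA per cell cannot be told apart either.

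Per kilobase of their longest annotated transcript, Ghr and Igfbp2 were the most abundant axis genes, with medians over 48 mice of 151 and 134 TMM-scaled RPKM. Igf1 followed at 89.7 RPKM and its plasma partner Igfals at 26.6 RPKM. The transducers were scarcer, with Stat5b at 10.3 RPKM, Jak2 at 5.12 RPKM and Stat5a at 4.29 RPKM. Igfbp1 stood at 8.51 RPKM. The feedback inhibitors were lowest, Socs2 at 3.52 RPKM and Cish at 1.16 RPKM, and Cish rested on 11 to 332 reads a mouse.

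**Figure D1:**
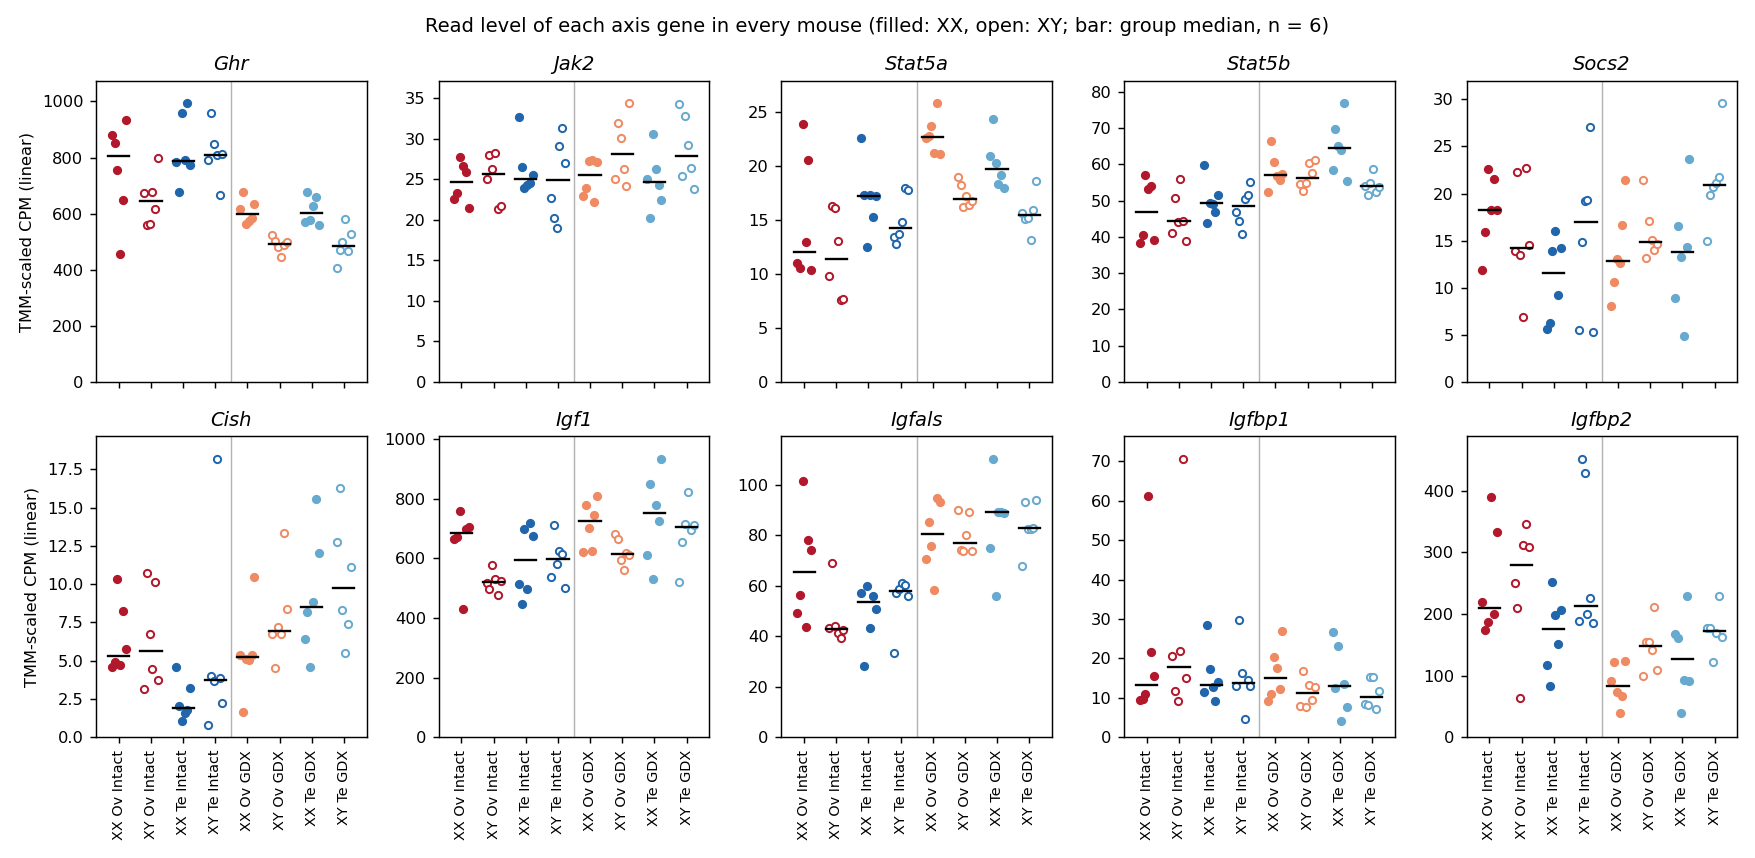
TMM-scaled CPM (vertical axes, linear, starting at 0) of the 10 axis genes in each of 48 mice, by group (horizontal axes). Filled points are XX mice, open points XY mice, black bars group medians of 6 mice, and the grey line divides intact from GDX groups. Ghr sits lower in the GDX groups (medians 486 to 601) than in the intact groups (medians 645 to 809.9), and 1 XY Te Intact mouse stands at 18.2 for Cish.

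These 4 questions follow from the design: how intact Ov and Te livers differed (gonadal effect), what castration and ovariectomy changed, whether the former gonad still mattered after GDX, and whether XX and XY livers differed. Each was answered for the 10 genes by contrasts of 8 group means in edgeR, p-values were adjusted across the 15414 genes by the Benjamini-Hochberg method, and a gene was called at an adjusted p under 0.05. Of the axis genes 2 differed by gonad in intact mice, Cish and Ghr, where 25.3% of all tested genes were called. Castration changed 6 of 10, of which Cish, Igfals, Stat5b and Igf1 rose and Ghr and Igfbp2 fell, against 63.3% of all tested genes. Ovariectomy changed 6 of 10, of which Stat5a, Igfals and Stat5b rose and Ghr, Igfbp1 and Igfbp2 fell, against 69.4% of all tested genes. The castration and ovariectomy shares are close to those of all genes. Markers of other cells moved with these comparisons, and their part was not tested. The 5 neutrophil markers had median sums of 16 TMM-scaled CPM in Te Intact and 1.74 in Te GDX mice, and of 29.5 in Ov Intact and 2.96 in Ov GDX mice. Most reads of this neutrophil sum were of S100a8 (18356 over all mice) and S100a9 (14527). The others had 850 (Retnlg), 577 (Mmp8) and 46 (Ly6g), so the sum mainly gives the level of S100a8 and S100a9. The exocrine pancreas markers summed to 9.64 to 41.0 in Te Intact and 3.77 to 9.43 in Te GDX mice. That sum rests on Cela1, which had 8158 reads over all mice. The other genes of that list had 2 (Cpa1), 4 (Ctrb1), 4 (Amy2b), 1 (Prss2) and 0 (Pnlip). The sum therefore gives the level of Cela1 and does not show that pancreas cells were present. The 10 macrophage markers had medians of 868 in Ov Intact and 420.2 in Te Intact mice. The gonadal effect shares the Te Intact mice with the castration effect and the Ov Intact mice with the ovariectomy effect.

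After GDX the former gonad left no call among the 10 genes by edgeR or DESeq2, and none had an unadjusted p under 0.05; 0.0908% of all tested genes were called. The test of castration minus ovariectomy called Cish alone, against 5.6% of all tested genes. XX and XY livers differed for 2 axis genes in GDX mice, Ghr and Stat5a, against 34.3% of all tested genes. In intact mice the chromosomal effect called 0 of the 10 genes by edgeR and by DESeq2, 1 had an unadjusted p under 0.05, and 10.7% of all tested genes were called. The change of the chromosomal effect with GDX called 0 by either tool, with 0 at an unadjusted p under 0.05, against 2.12% of all tested genes. The difference of the gonadal effect between XX and XY mice called 0 axis genes by either tool, with 1 at an unadjusted p under 0.05, and edgeR called 0% of all tested genes.

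**Figure D2:**
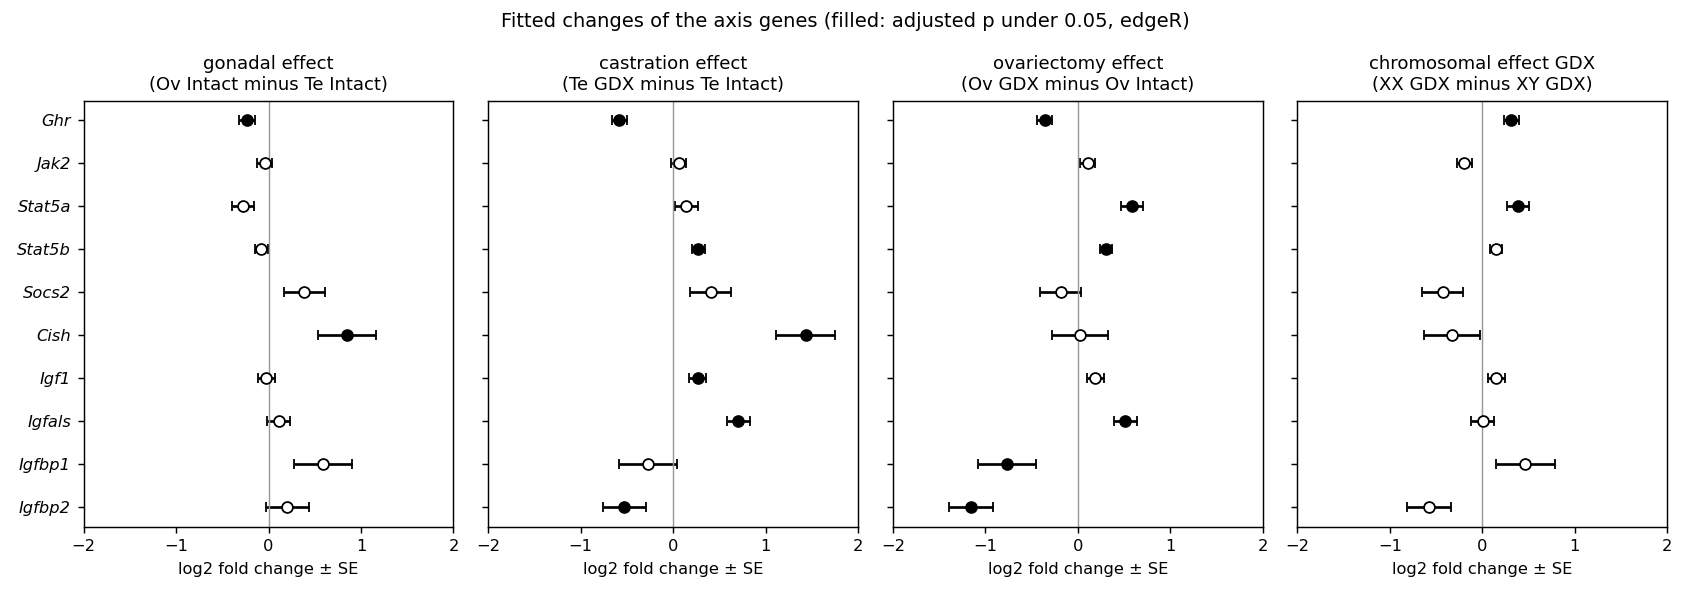
Log2 fold change ± SE (horizontal axes) of the 10 axis genes (rows) in the gonadal, castration, ovariectomy and chromosomal (GDX) effects, from the edgeR fit of 48 mice. Filled points have an adjusted p under 0.05. Cish is the farthest point in the castration effect (1.43) and lies at 0.02 in the ovariectomy effect, where Igfbp2 (-1.16) is the farthest.

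Ghr, which encodes the growth hormone receptor, was lower after GDX in mice of either gonad. Its lowest, median and highest levels were 456, 805 and 933 TMM-scaled CPM in XX Ov Intact mice, 559, 645 and 799.8 in XY Ov Intact mice, 678, 788 and 993 in XX Te Intact mice and 667, 809.9 and 959.9 in XY Te Intact mice. In GDX mice they were 563, 599 and 676 in XX Ov, 445, 493 and 523 in XY Ov, 561, 601 and 678 in XX Te and 406, 486 and 582 in XY Te. All 4 GDX medians were therefore below all 4 intact medians, and 11 of 12 castrated mice were below every intact Te mouse.

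The fitted Ghr level fell 1.5-fold with castration (log2 fold change -0.58 ± 0.08 SE, adjusted p = 1.35e-07, edgeR) and 1.28-fold with ovariectomy (-0.36 ± 0.08, adjusted p = 0.000193). The difference between these effects was -0.22 ± 0.12 (adjusted p = 0.237). The castration effect was called within XX (-0.44) and within XY mice (-0.73), and in neither did castrated and intact mice overlap; 37.1% and 56.7% of all tested genes were called there, and 18.7% and 20.7% had groups that did not overlap. The ovariectomy effect on Ghr was called within XX (-0.31) and within XY mice (-0.41), where 55.1% and 59.4% of all tested genes were called. The XY groups did not overlap, as for 34% of all tested genes. The call within XX mice was lost in 3 of 48 fits without 1 mouse and in 5 of 10 other settings, down to -0.08 with offsets for GC content and transcript length (adjusted p = 0.610). With library totals in place of TMM factors the ovariectomy effect on Ghr was -0.12 (adjusted p = 0.0678), with 1 surrogate variable -0.11 (adjusted p = 0.22) and with those offsets -0.15 (adjusted p = 0.107). The castration effect on Ghr kept its call under all 10 alternatives and without any 1 mouse.

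Intact Te mice had 1.18-fold more Ghr than intact Ov mice (-0.23 ± 0.08 for Ov minus Te, adjusted p = 0.0332), with 5 of 12 Ov mice below every Te mouse. This difference lost its call in 5 of 48 fits that left out 1 mouse, among them that without XX Te Intact mouse 95271 (-0.20, adjusted p = 0.0645). Within XY mice it was called (-0.33, adjusted p = 0.0477), where 15.5% of all tested genes were, and 32 of 48 fits without 1 mouse lost it. Within XX mice it was -0.14 ± 0.12 (adjusted p = 0.480).

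Among GDX mice, XX livers had 1.24-fold more Ghr than XY livers (0.31 ± 0.08, adjusted p = 0.00244). The XX and XY Ov GDX mice did not overlap, as for 19.1% of all tested genes, and 7 of 12 XX GDX mice were above every XY GDX mouse. With library totals the difference was 0.13 (adjusted p = 0.100) and without the filter on low counts 0.23 (adjusted p = 0.0705), neither called. TMM factors were 0.965 to 1.054 in XX Ov GDX and 0.946 to 1.07 in XX Te GDX libraries. They were 1.095 to 1.178 in XY Ov GDX and 1.069 to 1.243 in XY Te GDX libraries. The part of this difference in library make-up in the chromosomal effect was not tested. Markers of other cells moved with the same comparison. The 10 Kupffer cell and macrophage markers summed to 202 to 513 TMM-scaled CPM in XX GDX mice and 533 to 1595 in XY GDX mice, and the 5 neutrophil markers to 0.0786 to 2.06 and 1.47 to 70.9; their part in the result was not tested.

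Jak2, the kinase that the receptor activates, had the smallest span of group medians among the axis genes. Its group medians ran from 24.7 TMM-scaled CPM in XX Te GDX mice to 28.2 in XY Ov GDX mice, a 1.14-fold span, and the ranges of all 8 groups overlapped. The gonadal effect was -0.04 ± 0.08, the castration effect 0.06 ± 0.08 and the ovariectomy effect 0.11 ± 0.08, none of them called. In GDX mice Jak2 was 1.15-fold lower in XX than in XY livers without passing the test (-0.20 ± 0.08, adjusted p = 0.0548), and it passed in 8 of 10 other settings, at -0.23 (adjusted p = 0.0220) with DESeq2 size factors.

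Stat5a and Stat5b encode closely related transcription factors and lie side by side on chromosome 11 (NCBIM37, Stat5a at chr11:100720665-100746483 on the plus strand and Stat5b at chr11:100642045-100712038 on the minus strand). Reads that map to both would have been left out of either count. Stat5b, the form that dominates in liver, had 38.3, 46.9 and 57.0 TMM-scaled CPM (lowest, median, highest) in XX Ov Intact mice, 39.0, 44.2 and 55.9 in XY Ov Intact, 43.7, 49.2 and 59.8 in XX Te Intact and 40.8, 48.6 and 55.1 in XY Te Intact mice. After GDX the values were 52.4, 57.1 and 66.5 in XX Ov, 52.5, 56.2 and 61.2 in XY Ov, 55.2, 64.6 and 76.8 in XX Te and 51.4, 53.9 and 58.7 in XY Te mice. The GDX medians were all above the intact medians, and the GDX and intact mice of each genotype overlapped. Stat5b rose 1.21-fold with castration (0.27 ± 0.07, adjusted p = 0.000714) and 1.24-fold with ovariectomy (0.31 ± 0.07, adjusted p = 0.000131). The castration effect was called within XX mice (0.38, adjusted p = 0.00281) and not within XY mice (0.17, adjusted p = 0.132). Of all tested genes 37.1% and 56.7% were called there.

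Stat5a levels were lower and differed more between groups. Intact mice had 10.4, 12 and 23.9 TMM-scaled CPM in XX Ov, 7.63, 11.4 and 16.3 in XY Ov, 12.5, 17.3 and 22.6 in XX Te and 12.8, 14.3 and 18.0 in XY Te. GDX mice had 21.2, 22.7 and 25.8 in XX Ov, 16.2, 17.0 and 19.0 in XY Ov, 18.0, 19.7 and 24.4 in XX Te and 13.1, 15.4 and 18.6 in XY Te. Most intact Ov mice were low, apart from a few that reached the GDX range. Ovariectomy raised Stat5a 1.5-fold (0.59 ± 0.12, adjusted p = 4.39e-05), within XX (0.62) and within XY mice (0.56), whereas the castration effect was 0.14 ± 0.12 (adjusted p = 0.295). The test of the difference between these effects gave -0.44 ± 0.17 (adjusted p = 0.112). Among GDX mice Stat5a was 1.31-fold higher in XX than in XY livers (0.39 ± 0.12, adjusted p = 0.00940), 10 of 12 XX GDX mice were above every XY GDX mouse, and the Ov groups did not overlap, as for 19.1% of all tested genes. The macrophage and neutrophil sums and the TMM factors given for Ghr differed in this comparison too, and their part was not tested. With library totals this difference was 0.21 (adjusted p = 0.327), and without the filter 0.31 (adjusted p = 0.0638).

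Both STAT5 genes depended on a correction for GC content and transcript length. With such offsets Stat5b had a castration effect of -0.07 and an ovariectomy effect of -0.13, neither called, and Stat5a had a castration effect of -0.21 (adjusted p = 0.0328) and an ovariectomy effect of 0.18 (adjusted p = 0.0601). The part of the library make-up in the GDX effects on these genes was not tested. The ratio of Stat5a to Stat5b within a mouse, which no scaling of the library can change, differed in 1 of 12 comparisons: among XX GDX mice it was higher in former Ov than in former Te mice by 0.34 on the log2 scale (exact permutation test, two-sided, adjusted p = 0.0390 over 36 ratio comparisons, 5 of 6 mice above all former Te mice). Without XX Te Intact mouse 95271, whose removal changes the adjustment only, the adjusted p was 0.0584. No ratio was recomputed with GC and length offsets, and the longest transcripts of Stat5a and Stat5b have 57.9% and 52.7% GC.

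Cish, an inhibitor that STAT5 induces and that damps the same receptor, showed the widest span of the axis, from a median of 1.90 TMM-scaled CPM in XX Te Intact to 9.74 in XY Te GDX mice. The lowest, median and highest levels in intact mice were 4.59, 5.33 and 10.3 in XX Ov, 3.15, 5.61 and 10.7 in XY Ov, 1.07, 1.90 and 4.61 in XX Te and 0.787, 3.75 and 18.2 in XY Te. In GDX mice they were 1.67, 5.26 and 10.4 in XX Ov, 4.56, 6.97 and 13.3 in XY Ov, 4.6, 8.50 and 15.6 in XX Te and 5.50, 9.74 and 16.3 in XY Te. Intact Te mice were the low group, apart from XY Te Intact mouse 76370 at 18.2, the highest of all 48, whose nearest group mate was at 3.97.

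Cish rose 2.7-fold with castration (1.43 ± 0.31, adjusted p = 0.000142), and its ovariectomy effect was 0.02 ± 0.30 (adjusted p = 0.954). The effects differed by 1.41 ± 0.44 (adjusted p = 0.0443), a call close to the threshold that 25 of 48 fits without 1 mouse lost; without mouse 95271 it was 1.37 (adjusted p = 0.0604) and without mouse 76370 1.87 (adjusted p = 0.00122). Intact Ov mice had 1.80-fold more Cish than intact Te mice (0.85 ± 0.32, adjusted p = 0.0439). That difference lost its call in 14 of 48 fits without 1 mouse, was 0.81 without mouse 95271 (adjusted p = 0.0636) and 1.3 without mouse 76370 (adjusted p = 0.000692).

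The castration effect on Cish was called within XX mice (1.96 ± 0.46, adjusted p = 0.00125). Within XY mice it was 0.91 ± 0.43 (adjusted p = 0.0682), and without mouse 76370 it was 1.82 (adjusted p = 0.000268). The gonadal effect within XX mice was 1.44 ± 0.46 (adjusted p = 0.0517), where edgeR called 0 of the 10 genes, 3 had an unadjusted p under 0.05, DESeq2 called 1 (Cish) and 5.82% of all tested genes were called by edgeR. Within XY mice it was 0.25 ± 0.44 (adjusted p = 0.740). The XX minus XY difference of this effect did not pass its own test (1.19 ± 0.63, adjusted p = 0.790).

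Socs2, the suppressor of cytokine signalling whose loss gives oversized mice, varied widely and passed no test. Its group medians lay between 11.6 TMM-scaled CPM in XX Te Intact and 20.9 in XY Te GDX mice, and the ranges of all groups overlapped. Its gonadal effect was 0.39 ± 0.23 and its castration effect 0.41 ± 0.23 (adjusted p = 0.194 and 0.113), both in the direction of Cish, and its ovariectomy effect was -0.19 ± 0.22. With library totals the castration effect was called (0.61, adjusted p = 0.0161). The reads of Socs2 relative to Cish fell 2.35-fold with castration (log2 difference -1.23, permutation test with 100000 resamples, two-sided, adjusted p = 0.0390). Without mouse 95271 that ratio moved by -1.20 (adjusted p = 0.0647).

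Igf1, the hormone gene of the axis, stayed within a 1.44-fold span of group medians. Its lowest, median and highest levels were 431, 685 and 758 TMM-scaled CPM in XX Ov Intact, 476, 520.1 and 577 in XY Ov Intact, 445, 595 and 717 in XX Te Intact and 502, 597 and 709.8 in XY Te Intact mice. GDX mice had 619.6, 723 and 807 in XX Ov, 562, 613 and 682 in XY Ov, 530.5, 751 and 934 in XX Te and 519.7, 704 and 823 in XY Te. GDX medians were above the intact median of the same genotype in each of the 4 genotypes, and the GDX and intact mice of each genotype overlapped. Castration raised Igf1 1.20-fold (0.26 ± 0.09, adjusted p = 0.0102). Within XX mice that effect was 0.32 (adjusted p = 0.0441), a call that 12 of 48 fits without 1 mouse lost. Within XY mice it was 0.21 and not called (adjusted p = 0.158). Of all tested genes 37.1% and 56.7% were called there. The ovariectomy effect of 0.19 ± 0.09 missed the threshold (adjusted p = 0.0577) but passed it in 5 of 10 other settings, where it ran from 0.20 to 0.41. Intact Ov and Te mice differed by -0.02 ± 0.09 (adjusted p = 0.876).

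Igfals, which encodes the acid-labile subunit, moved more than Igf1. Intact mice had 43.8, 65.3 and 101 TMM-scaled CPM in XX Ov, 39.1, 42.7 and 68.8 in XY Ov, 28.3, 53.5 and 59.8 in XX Te and 33.3, 57.8 and 60.9 in XY Te. GDX mice had 58.4, 80.5 and 94.8 in XX Ov, 73.7, 77.1 and 89.8 in XY Ov, 55.9, 89.0 and 110.3 in XX Te and 67.6, 82.7 and 94.0 in XY Te. Of the castrated mice, 11 of 12 were above every intact Te mouse. Castration raised Igfals 1.63-fold (0.70 ± 0.12, adjusted p = 6.00e-06) and ovariectomy 1.43-fold (0.52 ± 0.12, adjusted p = 0.000325), and these effects differed by 0.19 ± 0.17 (adjusted p = 0.510).

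Within XY mice neither the castrated nor the ovariectomized livers overlapped the intact livers of the same gonad for Igfals. Of all tested genes 20.7% did not overlap in the castration comparison and 34% in the ovariectomy comparison. The ovariectomy effect was 0.79 within XY mice and 0.25 ± 0.17 within XX mice (adjusted p = 0.231); the difference between XX and XY mice was not tested. With GC and length offsets the ovariectomy effect was 0.28 (adjusted p = 0.0752), while castration kept its call. The ratio of Igfals to Igf1 rose 1.37-fold with castration (log2 difference 0.46, permutation test with 100000 resamples, two-sided, adjusted p = 0.00432), with 9 of 12 castrated mice above every intact Te mouse. It rose 1.28-fold with ovariectomy (0.35, adjusted p = 0.0390), with 2 of 12 mice above every intact Ov mouse. Without mouse 95271 the adjusted p of that rise was 0.0584. The ratio was not recomputed with GC and length offsets, and the longest transcripts of Igfals and Igf1 have 58.9% and 38.1% GC.

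**Figure D3:**
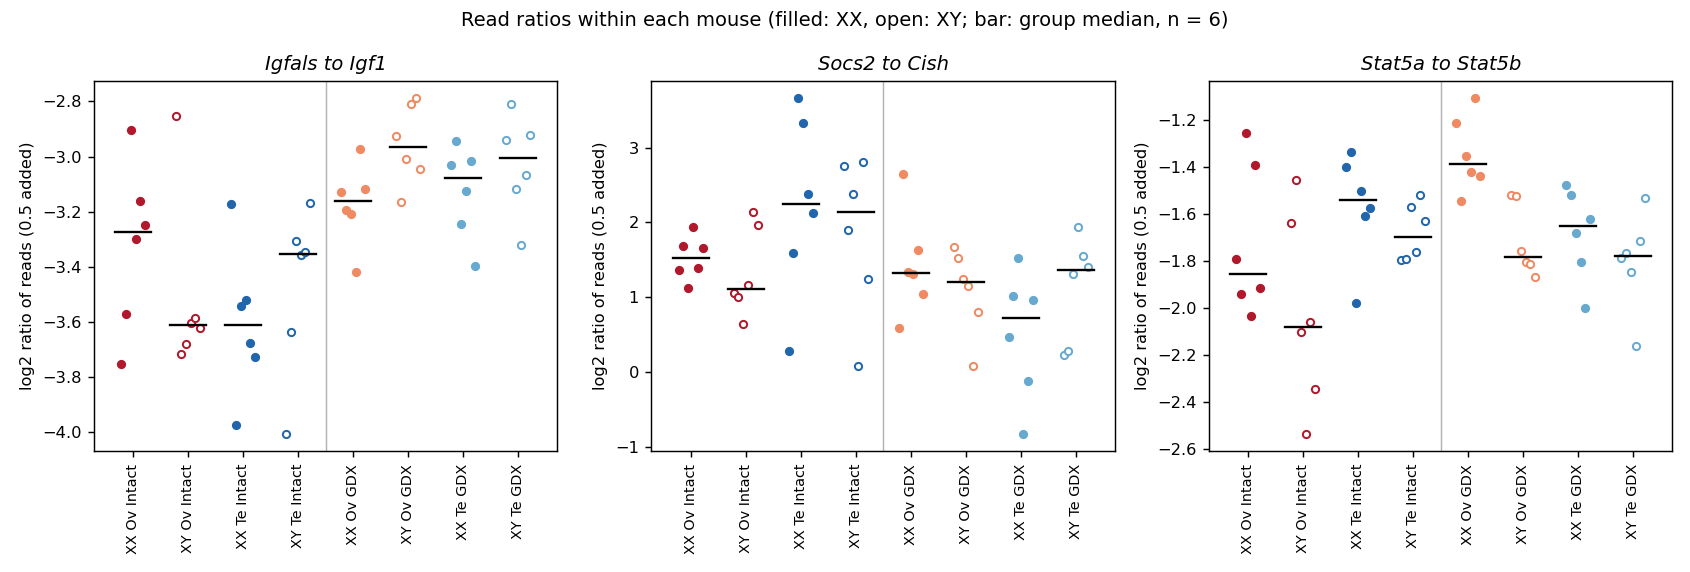
Log2 ratios of reads within each mouse (vertical axes, 0.5 reads added to each gene) for Igfals to Igf1, Socs2 to Cish and Stat5a to Stat5b, by group (horizontal axes). Filled points are XX and open points XY mice, and bars are medians of 6 mice. Mean Igfals to Igf1 ratios were -3.54 in intact Te and -3.08 in castrated mice, and mean Socs2 to Cish ratios 2.04 and 0.81.

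Igfbp2, a binding protein gene, fell most with ovariectomy. Its lowest, median and highest levels were 175, 209.7 and 389 TMM-scaled CPM in XX Ov Intact, 64.3, 279 and 346 in XY Ov Intact, 82.7, 175 and 252 in XX Te Intact and 186, 213 and 452 in XY Te Intact mice. They were 40.2, 82.5 and 123 in XX Ov GDX, 98.7, 148 and 211 in XY Ov GDX, 40.2, 128 and 229 in XX Te GDX and 122, 173 and 230.0 in XY Te GDX mice. XX Ov GDX mice were the lowest group and did not overlap XX Ov Intact mice, as for 19.6% of all tested genes. The ovariectomy effect was a 2.23-fold fall (-1.16 ± 0.24, adjusted p = 3.95e-05), with -1.54 within XX and -0.78 within XY mice, both called. The call within XY mice (adjusted p = 0.0413) was lost in 9 of 48 fits without 1 mouse and in 5 of 10 other settings, where it came to -0.39 with 1 surrogate variable (adjusted p = 0.459). Castration lowered Igfbp2 1.44-fold (-0.53 ± 0.23, adjusted p = 0.0461). That call was lost in 12 of 48 fits without 1 mouse and in 6 of 10 other settings, library totals among them (-0.31, adjusted p = 0.212). The castration effect was called neither within XX mice (-0.36, adjusted p = 0.397) nor within XY mice (-0.69, adjusted p = 0.0702). Ovariectomy and castration differed by 0.63 ± 0.33 (adjusted p = 0.240).

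In GDX mice Igfbp2 was 1.49-fold lower in XX than in XY livers and narrowly missed the threshold (-0.58 ± 0.23, adjusted p = 0.0514). DESeq2 called it (-0.61, adjusted p = 0.0310), and 7 of 12 XX GDX mice were below every XY GDX mouse.

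Igfbp1, the binding protein gene most responsive to fasting and insulin, had group medians from 10.1 TMM-scaled CPM in XY Te GDX to 17.8 in XY Ov Intact mice, a 1.76-fold span. Single mice ranged further, to 61.2 in XX Ov Intact mouse 81790 and 70.7 in XY Ov Intact mouse 69065. The ovariectomy effect was -0.77 ± 0.32 (adjusted p = 0.0291) and rested on these mice: it was -0.43 without mouse 81790 (adjusted p = 0.183) and -0.44 without mouse 69065 (adjusted p = 0.180). Within XY mice the ovariectomy effect was called (-1.13, edgeR adjusted p = 0.0287), as were 59.4% of all tested genes. That call was lost in 4 of 48 fits without 1 mouse. Within XX mice the ovariectomy effect was -0.40 (edgeR adjusted p = 0.454). The castration effect was -0.27 ± 0.32 (adjusted p = 0.460). The same mouse 81790 had the lowest Igf1 of its group, 430.7 TMM-scaled CPM against 664 in its nearest group mate.

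Of 34 other growth hormone and IGF pathway genes 26 were tested, a list chosen with earlier results of these data known. Castration raised 16 and lowered 3 of them (median log2 fold change 0.27, against 0.07 over all tested genes), and ovariectomy raised 15 and lowered 5 (median 0.25, against 0.06). The shares of all tested genes called there were 63.3% (33.4% higher, 29.9% lower) and 69.4% (36% higher, 33.4% lower). Prlr, the prolactin receptor that also signals through JAK2 and STAT5, rose with castration (1.44 ± 0.15, adjusted p = 9.76e-11) and by less with ovariectomy (0.33 ± 0.14, adjusted p = 0.0404), and these effects differed (1.11, adjusted p = 0.000314). Igf1r, the IGF1 receptor, rose by 1.06 and 0.92, and Igfbp5, another binding protein gene, by 1.12 and 1.17. Socs3, a suppressor induced by cytokines, rose with castration (0.59, adjusted p = 0.0161) and ovariectomy (0.49, adjusted p = 0.0406). Igfbp3, which joins IGF1 and the acid-labile subunit in plasma, had effects of 0.39 ± 0.18 and -0.10 ± 0.18 that did not pass.

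In the gonadal effect 6 of these 26 genes were higher in Ov mice, led by Lepr, the leptin receptor (1.67 ± 0.31, adjusted p = 8.48e-05), and Prlr (1.15 ± 0.15, adjusted p = 5.94e-08), and 4 were lower, led by Igf2r (-0.56 ± 0.17, adjusted p = 0.0138). The median was 0.07 against 0.04 over all tested genes, of which 25.3% were called. After GDX the former gonad left 0 of 26 called, against 0.0908% of all tested genes. In GDX mice 7 were lower and 1 higher in XX than in XY livers, where 34.3% of all tested genes were called. The called genes included Socs3 at -1.74 ± 0.22 (adjusted p = 8.21e-09), Ptpn6, a phosphatase of blood cells, at -1.63 ± 0.14 (adjusted p = 3.76e-13) and Ptpn1 at -1.29 ± 0.14 (adjusted p = 3.60e-10). The macrophage and neutrophil sums given above for Ghr moved with these genes.

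Of 9 insulin and FOXO1 responsive genes 8 were tested. Castration raised 4 and lowered 2 (median 0.27, against 0.07 over all tested genes) and ovariectomy raised 4 and lowered 1 (median 0.32, against 0.06), with 63.3% and 69.4% of all tested genes called. Irs2, an insulin receptor substrate, rose with castration (0.49 ± 0.17, adjusted p = 0.0143) and had an ovariectomy effect of 0.32 ± 0.17 (adjusted p = 0.0981), and Fgf21, a fasting hormone gene, fell with both (-1.20 and -1.05, adjusted p = 0.00295 and 0.00668).

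Genes known to depend on the sex pattern of growth hormone were followed beside the axis genes. Their lists are defined by sex bias and were chosen with earlier results known, so neither their directions nor their sizes are independent evidence. All 17 testis-biased, pulse-dependent genes were lower in Ov Intact than in Te Intact mice (median -3.0) and all 17 fell with castration (median -3.07). The largest gonadal differences were in Cyp4a12b (-8.16 ± 0.55), Hsd3b5 (-7.24 ± 0.65) and Cyp4a12a (-6.99 ± 0.58), of which the Cyp4a12 genes are close copies whose reads may be divided uncertainly. Of 22 ovary-biased genes 21 were higher in Ov Intact mice (median 4.08) and 18 rose with castration (median 2.09). Of all tested genes 25.3% were called in the gonadal effect and 63.3% in the castration effect.

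Cux2, a repressor found in female liver, was higher in intact Ov mice (5.31 ± 0.44, adjusted p = 6.06e-13), rose with castration (6.04 ± 0.44, adjusted p = 1.82e-14) and had an ovariectomy effect of 0.59 ± 0.32 (adjusted p = 0.0933). Bcl6, a repressor found in male liver that competes with STAT5 at its sites, was lower in intact Ov mice (-1.72 ± 0.24, adjusted p = 3.86e-07), fell with castration (-0.82 ± 0.23, adjusted p = 0.00226) and rose with ovariectomy (1.25 ± 0.23, adjusted p = 1.15e-05). Ovariectomy lowered 8 and raised 2 of the 17 testis-biased genes (median -0.78) and lowered 6 and raised 5 of the 22 ovary-biased genes (median 0.09), where 69.4% of all tested genes were called. After GDX, 1 of 17 and 4 of 22 still differed by the former gonad, against 0.0908% of all tested genes.

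**Figure D4:**
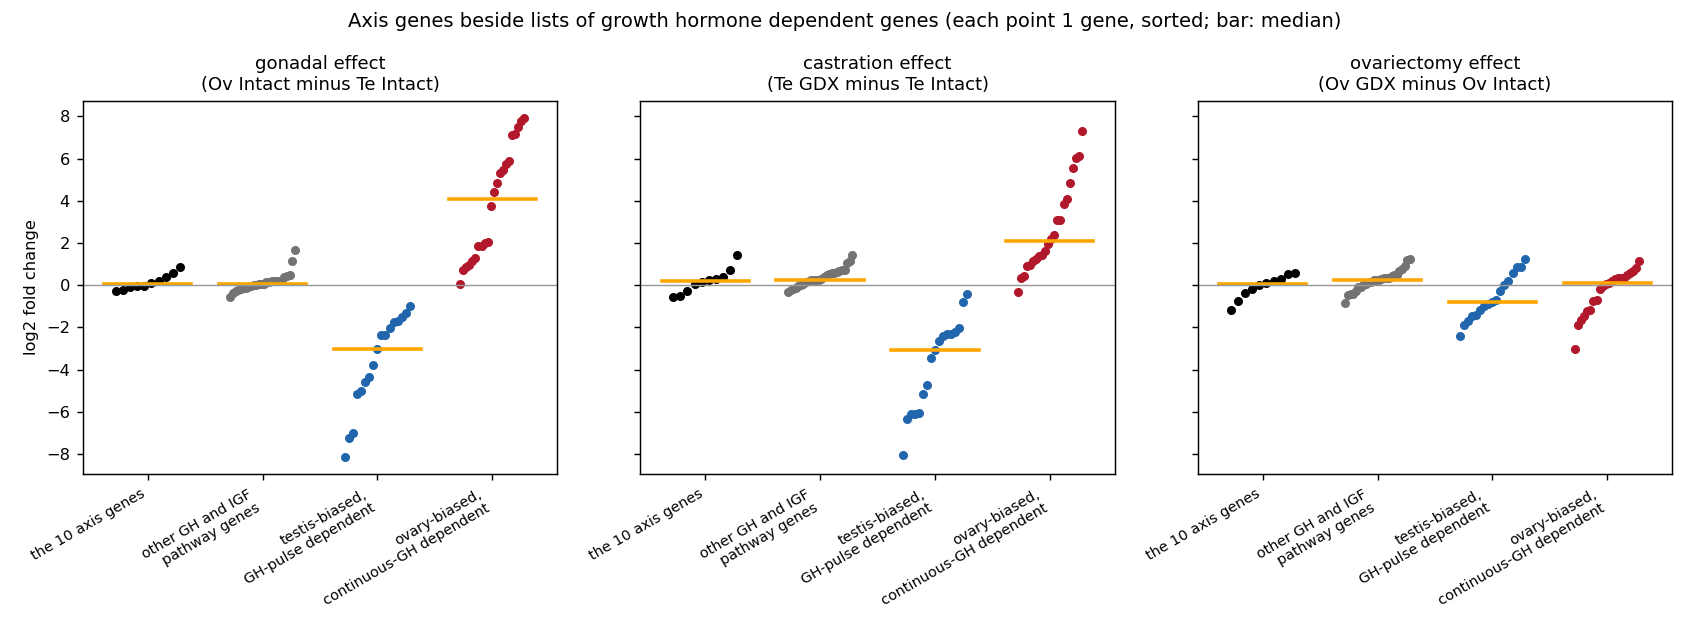
Log2 fold changes (vertical axis) of single genes in 4 lists (horizontal axes) for the gonadal, castration and ovariectomy effects. Each point is 1 gene, sorted within its list, and orange bars are medians. The testis-biased list has medians of -3.0, -3.07 and -0.78 and the 10 axis genes 0.04, 0.20 and 0.07.

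In GDX mice 8 of the 17 testis-biased genes were higher and 1 was lower in XX than in XY livers (median 0.72). Of all tested genes 34.3% were called there. The higher genes included Cyp4a12a at 3.78 ± 0.65 (adjusted p = 7.05e-06), Mup20 at 2.27 ± 0.42 (adjusted p = 2.28e-05) and Elovl3 at 1.64 ± 0.27 (adjusted p = 3.97e-06). The chromosomal effect on these genes changed with GDX for 7 of 17, all towards higher values in XX GDX mice. It changed for 0 of the 10 axis genes and for 2.12% of all tested genes. In intact mice 4 of 17 were lower in XX livers, among them Slco1a1 (-1.48 ± 0.44, adjusted p = 0.0216), and 10.7% of all tested genes were called.

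Among mice of 1 group, some axis genes varied together. After the group means were subtracted from log2 CPM, the Pearson correlation over 48 mice was 0.65 for Igf1 with Igfals, 0.61 for Igf1 with Ghr and 0.59 for Stat5a with Stat5b. Without that subtraction the correlation of Ghr with Igf1 was 0.07, and GDX groups had lower Ghr and higher Igf1 medians than the intact groups of the same genotype. Cish and Socs2 correlated at 0.38. The pair Stat5a and Stat5b correlated at 0.73 among the 24 intact mice and at -0.02 among the 24 GDX mice, and Jak2 with Stat5b at 0.76 and 0.09. Between 2 mice of a group, the chi-square per gene of read counts reached 342 in intact and 45.3 in GDX groups. The median within-group coefficient of variation was 26.6% (intact) and 9.47% (GDX) for Stat5a and 12.4% and 7.20% for Stat5b. For Jak2 it was 12.3% and 14.3%. The part of this spread in the correlations was not tested. Without XX Ov Intact mouse 81790, the lowest for Ghr and Igf1 in its group, the within-group values were 0.47 for Ghr with Igf1 and 0.60 for Igf1 with Igfals. These points share library depth and scaling, and the values are descriptions.

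**Figure D5:**
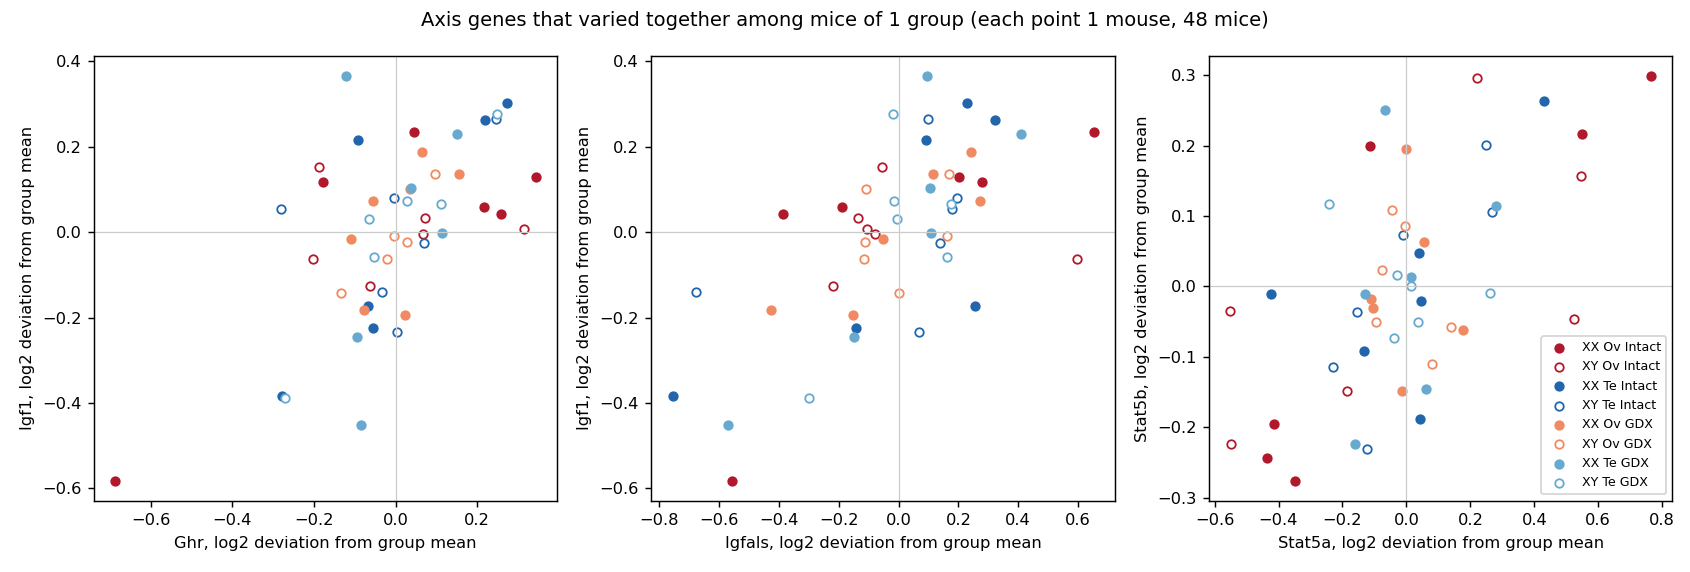
Deviations from the group mean of log2 TMM-scaled CPM for Igf1 against Ghr, Igf1 against Igfals and Stat5b against Stat5a, each point 1 of 48 mice. Colours and fill mark the 8 groups. The first pair of panels rises from lower left to upper right (r = 0.61 and 0.65), and in the Stat5 panel the intact mice carry the trend.

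The genes most like each axis gene over 48 mice were found by Pearson correlation of log2 CPM. Those of Ghr were Slco1b2 (0.93), 1110020G09Rik (0.92) and Lactb2 (0.92), and those of Igfals were Pigr (0.88), March6 (0.86) and Itih1 (0.86). Igf1 was most like Erap1 (0.81), Proz (0.81) and Gabpa (0.77). Stat5a was most like Slc38a10 (0.92) and Kank1 (0.91), and Stat5b most like Khnyn (0.91), Spnb3 (0.90) and Cnnm3 (0.90). Jak2 was nearest to Dennd5a (0.81), Usp12 (0.80) and Fscn1 (0.77). Cish was nearest to Foxa2 (0.72), which encodes a liver transcription factor, then Foxq1 (0.68) and Arid5b (0.64), and the correlation of Cish with Foxa2 within groups was 0.79. Igfbp2 was nearest to Avpr1a (0.77), Apom (0.76) and Hamp (0.74), and Igfbp1 to Sgk1 (0.66), Emp2 (0.60) and Tspan15 (0.60). Socs2 had the weakest neighbours, Lepr (0.60), Impdh2 (0.57) and Tgm1 (0.56). At r over 0.8, Stat5a had 677 neighbours, Stat5b 585 and Ghr 387, and Cish, Socs2, Igfbp1 and Igfbp2 had 0.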

How the data were processed

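Liver RNA-seq of 48 FCG mice was used, with groups taken from the sample labels. The authors aligned reads to GRCm39 and counted reads per gene with STAR (version 2.7.10a); the deposited values are raw counts. The annotation release and strand setting of the counting are not given in the sources used here. The 4 STAR summary rows (unmapped, multimapping, outside genes, ambiguous) held 25.5 to 42.3% of reads and were left out. The members and gene lists were chosen with earlier results of these data known.

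Genes with enough reads (filterByExpr) were tested with edgeR (version 4.0.16, TMM factors, quasi-likelihood F-test, robust dispersions, 8 group means, R 4.3.3) on all 48 mice, with Benjamini-Hochberg adjustment over 15414 genes. The pipeline was tested on simulated data. TMM factors were 0.742 to 1.079 in intact and 0.946 to 1.243 in GDX libraries. The floor of 3 reads equals 0.150 to 0.230 CPM and covers counting error only. Ratios (0.5 reads added) were compared by two-sided permutation tests (exact for 6 against 6, 100000 resamples for 12 against 12) adjusted over 36 comparisons. Lengths and GC content came from NCBIM37 annotation (13848 of 15414 genes). Named were the 10 members, up to 3 of the most changed called genes per list and direction with Bcl6, Cux2, Prlr, Socs3, Igfbp3 and Irs2, and 3 neighbours per member; some items under this rule are not reported here. Alternatives were DESeq2 (version 1.42.0) and its size factors, library totals, other filters, 47 mice, compared groups alone, 1 surrogate variable (sva 3.50.0), GC and length offsets, and each mouse left out. Mice are separate animals, and no numbering pairs them across groups.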

Additional observations from a re-analysis of the deposited data

Results flagged for a closer look

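In 7 of 80 sets of 6 mice, 1 mouse stood apart from the other 5 by Dixon's criterion, which flags about 1 in 20 such sets by chance. The 7 sets were all of intact mice and involved 6 mice, since mouse 81790 stood apart for both Igf1 and Igfbp1. Cish was 18.20 TMM-scaled CPM in XY Te Intact mouse 76370, with its nearest group mate at 3.97. Jak2 was 32.72 in XX Te Intact mouse 11587, with the nearest at 26.5. Igfals was 68.83 in XY Ov Intact mouse 36870, above the nearest at 43.9, and 33.27 in XY Te Intact mouse 10606, below the nearest at 55.8. Mouse 81790 of the XX Ov Intact group had the lowest Igf1, 430.7 with the nearest at 664, and the highest Igfbp1, 61.25 with the nearest at 21.8. Igfbp1 was also high, 70.66, in XY Ov Intact mouse 69065, with the nearest at 21.8.

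The castration effect on Cish exceeded its ovariectomy effect by 1.411 on the log2 scale (adjusted p = 0.0443, edgeR). That call was lost in 25 of 48 fits without 1 mouse and kept in 5 of 9 other settings.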

How the results depend on the processing

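Of 1552 values of the axis genes and ratios under 11 other settings, 1359 kept their direction and side of the threshold, 69 lost a call and 59 gained one. Another 58 changed sign with no call in either fit, and 7 changed sign with a call in at least 1 fit. Those 7 came with GC and length offsets: Stat5a in the castration effect (-0.21) and within XY mice (-0.39), and Stat5b in the castration effect (-0.069), within XY mice (-0.26), in the ovariectomy effect (-0.13), within XX (-0.10) and within XY mice (-0.16). The cause was not tested.

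The gonadal effect called 0 axis genes without the filter, with 47 mice and in the compared groups alone. Ovariectomy called 2 with GC and length offsets. Castration minus ovariectomy called 0 with library totals, without the filter and with 47 mice, and 2 with 1 surrogate variable or the offsets. The chromosomal effect called 1 in intact mice with the offsets. In GDX mice it called 4 with DESeq2 size factors, DESeq2, at least 10 reads, 45 mice (chosen after seeing the data) or the offsets, 5 in the compared groups alone or with 1 surrogate variable, and 1 without the filter. Of the ratio comparisons 1 was called with 47 mice, against 6.

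Without 1 mouse, the axis genes called ran from 0 to 3 (gonadal), 5 to 7 (castration), 5 to 7 (ovariectomy), 0 to 2 (castration minus ovariectomy), 2 to 4 (chromosomal, GDX) and 15 to 21 (within XX or XY mice, 18 with all mice), and stayed at 0 for the other effects. With library totals the median of all genes moved from 0.07 to 0.27 (castration), 0.06 to 0.27 (ovariectomy) and 0.08 to -0.10 (chromosomal, GDX), and the share of calls that were higher from 52.8 to 69.5%, 51.9 to 66.2% and 56.8 to 18.8%. With the offsets that share was 42.1%, 47.2% and 72.8%. Castration minus ovariectomy and the change of the chromosomal effect with GDX use all 8 groups, so no fit of compared groups alone exists. No paired analysis was possible because the groups share no replicate numbers. Depth limits Cish most, at 11 reads in the lowest mouse.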
